A study of Mus musculus with 8 samples.

Results

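The Slc22 genes encode carriers that move organic cations, organic anions and carnitine across the plasma membrane, and 9 of them, Slc22a5, Slc22a7, Slc22a18, Slc22a23, Slc22a26, Slc22a27, Slc22a28, Slc22a29 and Slc22a30, were followed by symbol through the liver RNA-seq counts. They are 9 of the 24940 genes in the count table and all 9 passed the expression filter that left 12340 genes for testing. Livers of 4 FXRKO males and 4 BCL6LKOFXRKO males on a C57BL/6 background were sequenced. Both genotypes were homozygous for the whole-body loss of FXR (Nr1h4), the nuclear receptor that senses bile acids, and both carried homozygous floxed Bcl6, which encodes a transcriptional repressor. BCL6LKOFXRKO males also carried Alb-Cre, a Cre recombinase under the albumin promoter that is active in hepatocytes, so Bcl6 was to be lost there. Mice with intact FXR were not analysed here, and age was not given in the sources used here. The comparison asks how these transporters differ when hepatocyte Bcl6 is lost from livers that already lack FXR. The paper reports bile acid overload and liver damage in males with this double loss. Effects of that damage, of Alb-Cre and of Bcl6 loss itself cannot be told apart here.

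In the liver, Slc22 carriers sit mainly on the blood-facing membrane of hepatocytes, where they take up drugs, metabolites and vitamins before conjugation and export into bile. Slc22a5 (OCTN2) is the high-affinity carnitine transporter, Slc22a7 (OAT2) an organic anion transporter, and Slc22a18 and Slc22a23 have less settled substrates. Slc22a26 to Slc22a30 belong to a rodent cluster of genes related to the organic anion transporters, and several rodent Slc22 genes are known for levels that differ between males and females.

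Of the 5 chromosome 19 members, 4 were called in BCL6LKOFXRKO livers, in opposite directions. Slc22a26 and Slc22a27, which were near the limit of counting in FXRKO livers, rose to between 23.9 and 123 CPM (counts scaled to library totals with TMM factors), whereas Slc22a28 fell to 1 to 3 counts per liver and Slc22a30 fell to a lower but well-counted level. Outside the cluster, Slc22a18 rose slightly and Slc22a5 and Slc22a7 fell. A gene was called where its adjusted p-value was under 0.05 (edgeR's quasi-likelihood test, Benjamini-Hochberg over the tested genes). Called higher were 3 of the 9 members, against 16.2% of all tested genes, and 4 were called lower, against 13.5%. In 6 members the 4 livers of one genotype did not overlap the 4 of the other, against 31.3% of all tested genes. The median absolute log2 fold change was 1.19 over the 9 members and 0.31 over all tested genes. With signs kept, the medians were 0.14 and 0.01. The members were chosen with earlier results of these data known. Slc22a26, Slc22a27 and Slc22a28 passed the expression filter through the genotype where they were high. These counts and medians therefore describe the list and are no test of it. In whole liver RNA, fewer cells of a type and less RNA per cell cannot be told apart.

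**Figure D1:**
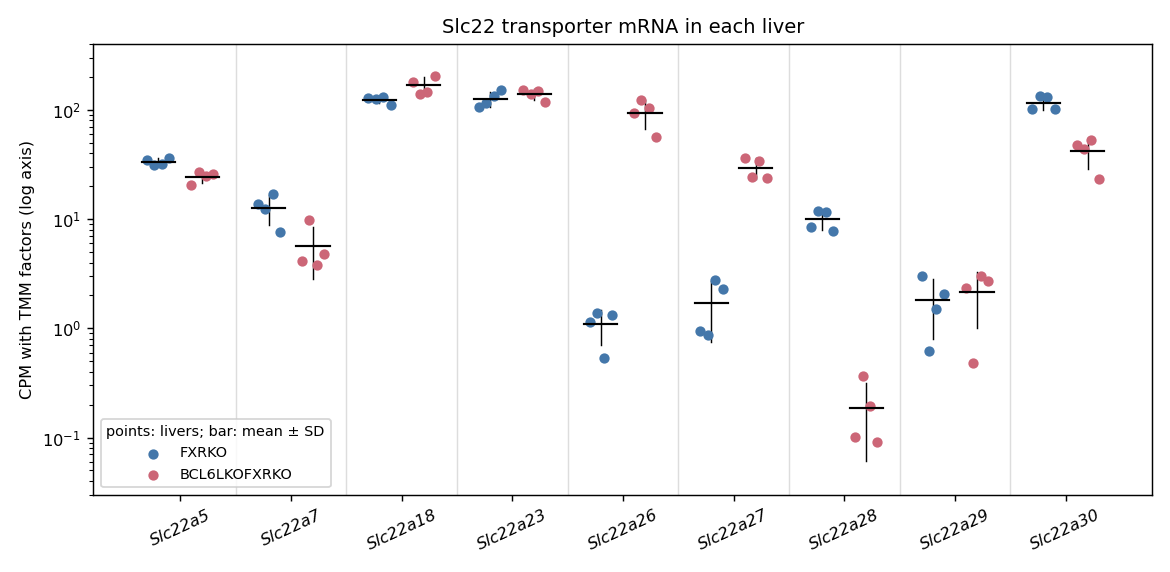
CPM of the 9 Slc22 members on a log axis, with 1 point per liver and the mean ± SD (n = 4) in each genotype. Slc22a26 and Slc22a27 lie higher in all 4 BCL6LKOFXRKO livers, Slc22a28 and Slc22a30 lie lower, and the genotypes overlap for Slc22a7, Slc22a23 and Slc22a29.

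The libraries held 7586241 to 11839503 counts on genes, and no pair of livers of 1 genotype agreed within sampling noise (chi-square per degree of freedom 10.9 to 50.6). Bcl6 was at 21.2 to 65.2 CPM in FXRKO livers and 4.61 to 11.9 CPM in BCL6LKOFXRKO livers, a log2 fold change of -2.72 with an adjusted p of 0.00123 by edgeR. Nr1h4 was still counted in both genotypes, at 60.0 ± 2.46 and 43.5 ± 3.69 CPM (SD, n = 4), and a count per gene does not show which exons were removed. Scaling by total counts alone shifted the log2 fold changes of all tested genes by a median of -0.16, and the values given here use the TMM factors. Of the hepatocyte markers, 5 of 6 were in the table, and their summed level was 56892 to 68964 CPM in FXRKO livers and 148999 to 166769 CPM in BCL6LKOFXRKO livers, with 2 called higher and 2 called lower. That difference was carried by albumin, and the other 4 summed to 18654 to 20566 and 18262 to 21206 CPM. The 6 cholangiocyte markers summed to 41.5 to 65.9 and 74.3 to 134 CPM (2 of 4 tested genes higher). Most of that sum was Spp1, at 43.4 ± 7.51 and 87.2 ± 25.1 CPM (SD, n = 4). Sox9 and Epcam, with log2 fold changes of -0.81 and 0.78, were not called. The 6 stellate cell and fibroblast markers summed to 67.9 to 89.4 and 134 to 162 CPM (3 of 6 higher). One of 5 markers was called higher for sinusoidal endothelial cells (115 to 158 and 150.4 to 210.1 CPM) and 1 of 5 for macrophages (223 to 292 and 253 to 419.9 CPM), with sums that overlapped between genotypes, as was the 1 lymphocyte marker tested (list of 5, 7.57 to 10.8 and 13.2 to 19.5 CPM). These counts stand beside 16.2% of all tested genes called higher. The part of these markers in the transporter values was not tested.

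The chromosome 19 members lie on the minus strand in 1 run on mm10, with Slc22a26 (NM_146232) at chr19:7781981-7802667, Slc22a27 (NM_134256) at chr19:7864389-7966027, Slc22a28 (NM_001013820) at chr19:8062209-8131982, Slc22a29 (NM_172776) at chr19:8160168-8218900 and Slc22a30 (NM_177002) at chr19:8335623-8405105. Each has 10 exons in GENCODE except Slc22a27, which has 11, and no exon of another gene overlaps them. Several copies share sequence. Over aligned transcript bases, Slc22a28 and Slc22a30 were 98.8% identical and Slc22a27 and Slc22a29 96.4%, whereas Slc22a26 was 76.4% to 78.5% identical to the other 4. By the same measure, which leaves out gaps, member pairs not both in the cluster ran from 69.1% to 92.3%. The 92.3% is of Slc22a18 (1552 bases) with the much longer Slc22a23 (6251 bases). Neither shares a 100-base stretch with another Slc22 gene. The values of Slc22a26 lie within that range, and 96.4% is not far above it, so this measure alone does not show how closely a pair is related. The authors kept only reads with 1 location in the genome, so a read from a stretch that copies share was not counted. Of the 100-base windows of each transcript, the length of a read, 37.0% of Slc22a28 and 32.9% of Slc22a30 also occurred in another Slc22 gene, as did 8.43% of Slc22a29, 7.65% of Slc22a27 and none of Slc22a26. Levels of Slc22a27 to Slc22a30 are therefore uncertain between copies.

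The promoters of the 5 genes are printed as a description of their sequences, and their part in the changes was not tested. They run from 250 bases before to 50 bases after the start site, 5′ to 3′ on the minus strand, from RefSeq on GRCm38.p6. Capitals mark a match to TTCNNNGAA in Slc22a26, a match to AGGTCA on the other strand in Slc22a27, bases that differ from the aligned Slc22a30 base in Slc22a28 and Slc22a29, and bases that differ from Slc22a28 in Slc22a30.
Slc22a26, chr19:7802618-7802917: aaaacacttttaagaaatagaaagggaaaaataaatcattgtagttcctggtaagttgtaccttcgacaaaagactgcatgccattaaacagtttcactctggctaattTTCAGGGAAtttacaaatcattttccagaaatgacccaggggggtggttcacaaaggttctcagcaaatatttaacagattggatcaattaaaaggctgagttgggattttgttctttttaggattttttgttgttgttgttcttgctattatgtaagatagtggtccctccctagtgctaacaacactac
Slc22a27, chr19:7965978-7966277: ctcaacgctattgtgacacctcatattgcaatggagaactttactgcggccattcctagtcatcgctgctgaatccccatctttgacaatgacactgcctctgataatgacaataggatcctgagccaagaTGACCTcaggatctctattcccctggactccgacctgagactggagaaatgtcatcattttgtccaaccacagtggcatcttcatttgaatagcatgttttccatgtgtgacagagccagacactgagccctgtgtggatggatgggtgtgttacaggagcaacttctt
Slc22a28, chr19:8131933-8132232: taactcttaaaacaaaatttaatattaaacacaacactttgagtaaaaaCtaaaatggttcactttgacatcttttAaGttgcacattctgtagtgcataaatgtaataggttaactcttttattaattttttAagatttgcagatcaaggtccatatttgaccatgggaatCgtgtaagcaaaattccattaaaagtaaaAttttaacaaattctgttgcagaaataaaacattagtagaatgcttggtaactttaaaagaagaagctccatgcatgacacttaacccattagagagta
Slc22a29, chr19:8218851-8219150: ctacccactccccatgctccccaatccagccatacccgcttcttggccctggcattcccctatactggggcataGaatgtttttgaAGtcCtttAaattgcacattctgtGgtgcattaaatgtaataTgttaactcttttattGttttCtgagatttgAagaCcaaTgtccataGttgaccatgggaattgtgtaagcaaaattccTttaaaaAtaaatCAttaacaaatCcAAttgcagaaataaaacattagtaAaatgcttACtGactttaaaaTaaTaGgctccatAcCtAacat
Slc22a30, chr19:8405056-8405355: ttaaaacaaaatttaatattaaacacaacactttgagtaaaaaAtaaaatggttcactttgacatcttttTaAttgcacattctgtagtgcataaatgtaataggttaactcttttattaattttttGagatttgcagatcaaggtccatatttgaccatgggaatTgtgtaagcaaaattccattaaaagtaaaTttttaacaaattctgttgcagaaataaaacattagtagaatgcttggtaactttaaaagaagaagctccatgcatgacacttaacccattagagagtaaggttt

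Slc22a28 and Slc22a30 aligned over 294 bases with 288 identical (98.0%), shifted by the position of the annotated start. The Slc22a29 promoter aligned with that of Slc22a30 over 227 bases with 197 identical (86.8%) and with that of Slc22a28 over 217 bases with 185 identical (85.3%). The best local alignment between the Slc22a26 and Slc22a27 promoters covered 8 bases. The Slc22a27 promoter also aligned only briefly with the other copies, over 12 bases with Slc22a29 and 15 with each of Slc22a28 and Slc22a30. On both strands, TTCNNNGAA, the palindrome of STAT factors, occurred in 1 of the 8 member promoters in the RefSeq table, Slc22a26, first base at -141 from the start, and in 8.30% of all 32851 promoters. TTCCTNGAA, a form close to the BCL6 consensus and overlapping the STAT letters, was in none of the 8 and in 1.59% of all promoters. At that share, its absence from 8 promoters is not informative. The nuclear receptor element AGGTCA occurred in Slc22a27 alone, at -119, and in 16.3% of all promoters. The IR1 and DR1 arrangements of that element and the HNF1 consensus were in none of the 8. They were in 0.00913%, 0.0396% and 0.00913% of all promoters, too rare for their absence from 8 to be informative. A match is a description of letters in this window and not a bound site. The promoter of Slc22a7 was not in the table.

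Slc22a26 was counted 11, 11, 5 and 14 times in the FXRKO livers and 936, 1011, 1066 and 618 times in the BCL6LKOFXRKO livers. These are 1.14, 1.37, 0.537 and 1.32 CPM against 94.3, 123, 104 and 56.1 CPM. All 4 BCL6LKOFXRKO livers lay far above the FXRKO livers, with liver 8 the lowest of them. The mean rose from 1.10 ± 0.385 to 94.2 ± 28.0 CPM (SD, n = 4), an 86.0-fold difference of means and a log2 fold change of 6.41 (SE 0.31, adjusted p = 5.60e-08 by edgeR). It was the 34th highest log2 fold change of all tested genes.

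Slc22a27 was at 0.937, 0.875, 2.79 and 2.27 CPM in the FXRKO livers and at 36.4, 24.4, 33.8 and 23.9 CPM in the BCL6LKOFXRKO livers. The genotypes were apart in every liver, and FXRKO livers 3 and 4 were higher than 1 and 2. The means were 1.72 ± 0.964 and 29.6 ± 6.41 CPM (SD, n = 4), 17.2-fold apart, with a log2 fold change of 4.07 (SE 0.30, adjusted p = 1.08e-06 by edgeR). Its copy Slc22a29 stayed low in both genotypes. Slc22a29 had 29, 5, 14 and 22 counts in FXRKO livers and 23, 4, 31 and 30 counts in BCL6LKOFXRKO livers, or 0.625 to 3.02 and 0.485 to 3.02 CPM. The ranges coincided almost fully, and its log2 fold change of 0.24 had a larger SE of 0.48 (adjusted p = 0.737 by edgeR). Leaving out FXRKO liver 2 turned its sign to -0.0189 (adjusted p = 0.980; 0.326 to 0.980 over all alternatives). With the counts of Slc22a27 and Slc22a29 summed, the pair was at 3.53 ± 1.36 and 31.7 ± 7.01 CPM, a log2 fold change of 3.14 (SE 0.26, adjusted p = 2.61e-06 by edgeR).

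Slc22a28 was counted 82, 94, 107 and 83 times in FXRKO livers and 1, 3, 2 and 1 times in BCL6LKOFXRKO livers. The counts of the BCL6LKOFXRKO livers are at or below the floor of 3 counts used here. Summed over livers and scaled by depth, 366 counts against 7 gave a 55.0-fold lower level, with an exact 95% interval of 26.4 to 138 that covers counting error only. In CPM, the livers were at 8.53, 11.7, 11.5 and 7.85 against 0.101, 0.364, 0.195 and 0.0908, and the fitted log2 fold change of -5.69 (SE 0.35, adjusted p = 1.07e-07 by edgeR) was the 29th lowest of all tested genes. The size and rank of that value are uncertain, since it rests on 1 to 3 counts per BCL6LKOFXRKO liver. DESeq2 gave -5.80 with a larger SE of 0.59. No liver of one genotype came near the other.

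Slc22a30, the main member of the cluster in FXRKO livers, was at 101, 132, 131 and 101 CPM there and at 47.3, 43.6, 53.0 and 23.1 CPM in BCL6LKOFXRKO livers. Each BCL6LKOFXRKO liver was below each FXRKO liver, and liver 8 was the lowest. The mean was 2.79-fold lower, at 41.7 ± 13.0 against 116 ± 17.6 CPM (SD, n = 4), with a log2 fold change of -1.48 (SE 0.22, adjusted p = 0.000473 by edgeR). Because Slc22a28 and Slc22a30 share so much sequence, their counts were also summed. The pair was at 109 to 144 CPM in FXRKO and 23.2 to 53.2 CPM in BCL6LKOFXRKO livers, a log2 fold change of -1.59 (SE 0.22, adjusted p = 0.000312 by edgeR). Slc22a30 holds most of that sum in both genotypes, so the value largely repeats its own. Summing also does not bring back reads dropped from shared stretches. Counts of Slc22a28 were 8.44%, 8.87%, 8.78% and 7.74% of those of Slc22a30 in the FXRKO livers and 0.213%, 0.836%, 0.368% and 0.394% in the BCL6LKOFXRKO livers. The ratio was thus even among FXRKO livers and below 1% in each BCL6LKOFXRKO liver.

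**Figure D2:**
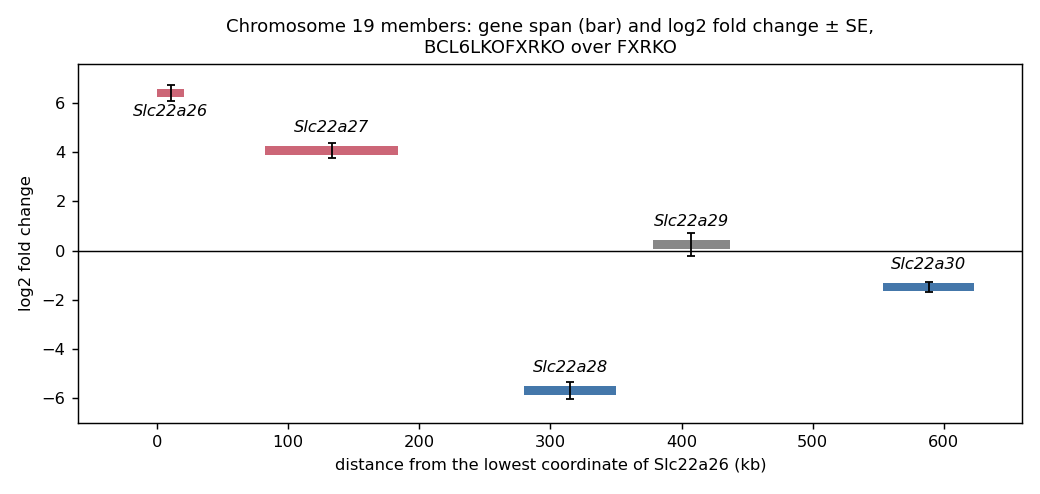
Span of each chromosome 19 member (bar, distance in kb from the lowest coordinate of Slc22a26) against its log2 fold change with SE (BCL6LKOFXRKO over FXRKO). The members with values of 6.41 and 4.07 lie at the low-coordinate end, the lowest value, -5.69, lies in the middle, and Slc22a29 (0.24, not called) lies between Slc22a28 and Slc22a30.

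Per kb of transcript, which allows levels of different genes to be compared, the 5 members together were at 57.5, 74.0, 74.0 and 57.7 CPM per kb in FXRKO livers and 89.2, 95.3, 96.0 and 52.2 in BCL6LKOFXRKO livers. The genotypes overlapped because BCL6LKOFXRKO liver 8 lay below every FXRKO liver. The make-up of the sum differed in every liver. Slc22a30 held 89.1% ± 0.780 of it in FXRKO livers and 25.0% ± 2.72 in BCL6LKOFXRKO livers (SD, n = 4). Slc22a26 went from 0.861% ± 0.344 to 56.4% ± 5.45 and Slc22a27 from 1.23% ± 0.668 to 17.2% ± 4.04. Slc22a28 held 7.51% ± 0.503 and then 0.109% ± 0.0581, while Slc22a29 was at 1.30% ± 0.847 and 1.27% ± 0.858. The shares of all but Slc22a29 did not overlap between genotypes, and the highest share of Slc22a26, 64.6%, was in liver 6. Per kb of unshared length, Slc22a26 held 49.6% ± 5.26 and Slc22a30 32.6% ± 3.18 in BCL6LKOFXRKO livers. These shares rest on the same counts as the fold changes and were not tested.

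**Figure D3:**
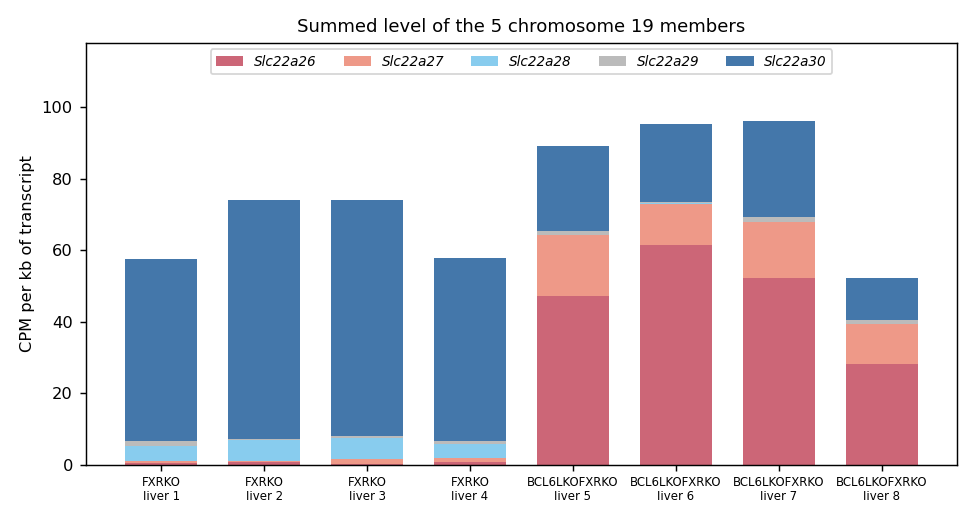
Stacked level per kb of transcript of the 5 chromosome 19 members in each liver. Slc22a30 fills most of each FXRKO bar, Slc22a26 more than any other member of each BCL6LKOFXRKO bar, and the bar of BCL6LKOFXRKO liver 8 (52.2 CPM per kb) is the lowest of its genotype.

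Slc22a5 (NM_011396, chr11:53864542-53891703, minus strand, 10 exons), the carnitine transporter, was at 34.4, 31.5, 31.6 and 36.4 CPM in FXRKO livers and 20.3, 26.8, 24.5 and 25.6 CPM in BCL6LKOFXRKO livers. Every BCL6LKOFXRKO liver was below every FXRKO liver. The fall was small, 1.38-fold between means, with a log2 fold change of -0.46 (SE 0.12, adjusted p = 0.0123 by edgeR). Of its windows, 13.7% also occur in Slc22a21, which reached at most 12 counts in any liver. Of 8 genes of carnitine synthesis and acylcarnitine handling, 7 were tested, 1 was called higher and 4 lower (median log2 fold change -0.40), against 16.2% and 13.5% of all tested genes, and Tmlhe had 0 counts in every liver. Crot, the peroxisomal carnitine octanoyltransferase, fell from 631 ± 58.1 to 316 ± 34.0 CPM (SD, n = 4, log2 fold change -0.997). Cpt1a, which makes long-chain acylcarnitines for mitochondrial import, changed by -0.89 and Bbox1, the last enzyme of carnitine synthesis, by -0.55 on the log2 scale. Crat, the carnitine acetyltransferase, went the other way, from 49.6 ± 10.04 to 113 ± 33.3 CPM (log2 fold change 1.19).

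Slc22a7 (NM_144856, chr17:46432185-46438477, minus strand, 10 exons), the hepatic organic anion transporter OAT2, was at 13.6, 12.4, 17.1 and 7.66 CPM in FXRKO livers and 4.13, 9.83, 3.799 and 4.81 CPM in BCL6LKOFXRKO livers. The genotypes overlapped through 1 liver of each, FXRKO liver 4 and BCL6LKOFXRKO liver 6. The mean was 2.25-fold lower and the log2 fold change -1.19 (SE 0.32, adjusted p = 0.0154 by edgeR). The call was lost without BCL6LKOFXRKO liver 8 (log2 fold change -1.12, adjusted p = 0.0680; 0.000854 to 0.0680 over all alternatives).

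Slc22a18 (NM_001042760, chr7:143475116-143499332, plus strand, 11 exons), in the imprinted region of Kcnq1 and Cdkn1c, was at 127, 125, 130.4 and 112 CPM in FXRKO livers and 179.8, 140.3, 146 and 204 CPM in BCL6LKOFXRKO livers. The genotypes did not overlap, but the gap between FXRKO liver 3 and BCL6LKOFXRKO liver 6 was narrow. The log2 fold change was 0.44 (SE 0.13, adjusted p = 0.0240 by edgeR). It was not called with total counts alone (0.28, adjusted p = 0.125) or without FXRKO liver 2, FXRKO liver 4 or BCL6LKOFXRKO liver 5 (adjusted p = 0.0571, 0.0744 and 0.0674; 0.0129 to 0.125 over all alternatives). Slc22a23 (NM_001033167, chr13:34179158-34345182, minus strand, 11 exons), an orphan carrier, was at 106, 115, 133 and 151 CPM in FXRKO and 150.4, 140.3, 147 and 117 CPM in BCL6LKOFXRKO livers. The ranges overlapped, and the log2 fold change of 0.14 (SE 0.13, adjusted p = 0.461 by edgeR) was -0.0188 with total counts alone (adjusted p = 0.930; 0.167 to 0.930 over all alternatives).

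By level per kb of the whole transcript, Slc22a18 was the highest of the 9 members in both genotypes, at 80.7 ± 5.34 and 109 ± 19.6 CPM per kb (SD, n = 4). In FXRKO livers Slc22a30 followed (58.7 ± 8.86), then Slc22a23 (20.2 ± 3.25), Slc22a5 (10.8 ± 0.772), Slc22a7 (6.36 ± 1.95), Slc22a28 (4.97 ± 1.01), Slc22a27 (0.804 ± 0.451), Slc22a29 (0.801 ± 0.445) and Slc22a26 (0.549 ± 0.193). Livers of neighbours in this order overlapped for Slc22a7 and Slc22a28, for Slc22a27 and Slc22a29, and for Slc22a29 and Slc22a26. In BCL6LKOFXRKO livers Slc22a26 was next to Slc22a18 (47.3 ± 14.1), followed by Slc22a23 (22.3 ± 2.41), Slc22a30 (21.0 ± 6.57), Slc22a27 (13.8 ± 2.997), Slc22a5 (7.87 ± 0.910), Slc22a7 (2.83 ± 1.42), Slc22a29 (0.947 ± 0.504) and Slc22a28 (0.0942 ± 0.0636). There the overlapping neighbours were Slc22a23 with Slc22a30 and Slc22a30 with Slc22a27. Slc22a26 thus went from the lowest of the 9 to the second place, and Slc22a28 was last in BCL6LKOFXRKO livers. Reads from shared stretches were not counted, and dividing by the unshared length alone changed the order. Slc22a30 (87.4 ± 13.2) then stood above Slc22a18 in FXRKO livers, with livers that overlapped, and above Slc22a23 in BCL6LKOFXRKO livers (31.3 ± 9.79), and Slc22a28 (7.90 ± 1.60) above Slc22a7 in FXRKO livers.

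The table held 26 rows with an Slc22a symbol. Of the 17 that are not members, 6 were tested, 6 had 0 counts in every liver and none of the 11 untested rows exceeded 12 counts in a liver. Among the tested, 3 were called higher and 2 lower (median log2 fold change 0.64), against 16.2% and 13.5% of all tested genes. Slc22a2 (OCT2), known from the kidney, had 0 counts in all FXRKO livers and 267, 157, 248 and 339 counts in BCL6LKOFXRKO livers. With the floor of 3 counts per liver put in place of 0, its mean was at least 78.0-fold higher in BCL6LKOFXRKO livers. The kidney tubule markers Slc34a1 and Kap had 0 counts in every liver, and the 4 markers of that list summed to 0.378 to 0.875 CPM in FXRKO and 0 to 0.182 CPM in BCL6LKOFXRKO livers. Slc22a3 (OCT3) rose from 3.70 ± 0.728 to 17.3 ± 5.57 CPM (log2 fold change 2.22, adjusted p = 2.44e-05 by edgeR).

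Slc22a17, a receptor for lipocalin-2, was low and higher in BCL6LKOFXRKO livers, at 1.40 ± 0.306 and 3.24 ± 0.822 CPM (SD, n = 4), with a log2 fold change of 1.19. Slc22a4 (OCTN1), the ergothioneine transporter that lies within 100 kb of Slc22a5, fell from 6.70 ± 1.41 to 2.46 ± 0.484 CPM, with a log2 fold change of -1.45. Slc22a15 fell from 6.95 ± 1.55 to 3.66 ± 1.19 CPM (log2 fold change -0.90). By edgeR, the adjusted p-values of these 3 genes were 0.00728, 0.000443 and 0.0171.

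**Figure D4:**
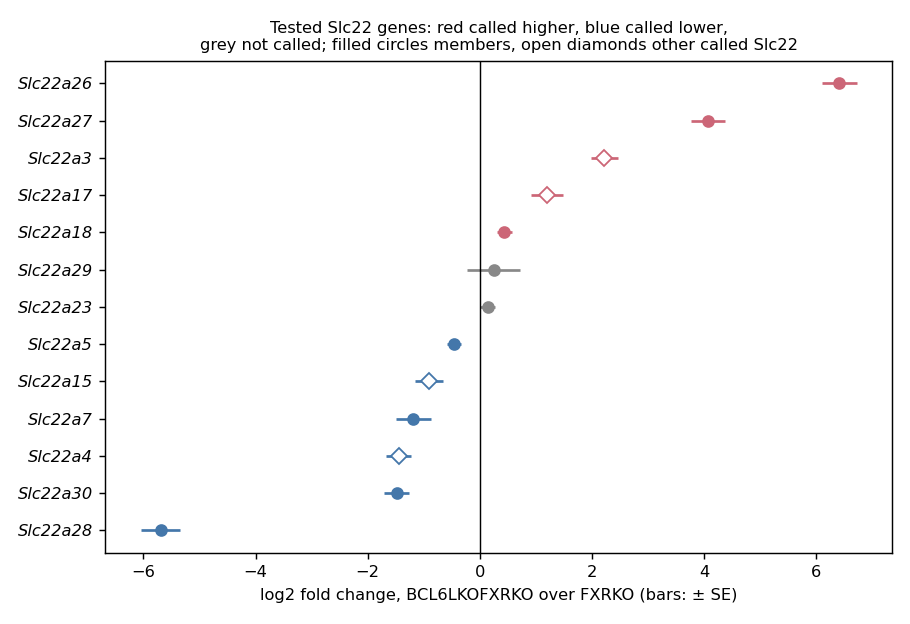
Log2 fold change with SE (BCL6LKOFXRKO over FXRKO) of tested Slc22 genes, filled circles for the 9 members and open diamonds for other called genes. Values run from -5.69 (Slc22a28) to 6.41 (Slc22a26), and Slc22a2, with 0 counts in FXRKO livers, is not drawn.

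Export carriers for organic ions were called in both directions, 2 higher and 4 lower of 8 tested (median log2 fold change -0.51), against 16.2% and 13.5% of all tested genes. Abcc4, a basolateral exporter of organic anions, rose from 6.40 ± 0.863 to 39.1 ± 12.3 CPM (SD, n = 4, log2 fold change 2.60, adjusted p = 3.13e-06 by edgeR), and Abcb1a, a P-glycoprotein gene, from 1.43 ± 0.211 to 3.21 ± 1.203 CPM (log2 fold change 1.16). Abcg2, Abcc3 and Abcc6, exporters of the canalicular or basolateral membrane, were lower by log2 fold changes of -1.03, -0.91 and -0.61. Of 9 regulator genes, none was called higher and 5 were called lower (median -0.46), against 13.5% of all tested genes called lower. The 5 include Bcl6 and Nr1h4, the genes targeted in these mice. Besides Bcl6 and Nr1h4, Nr0b2 (SHP), a repressor of other nuclear receptors, was at 12.4 ± 3.75 and 0.871 ± 0.466 CPM (log2 fold change -3.85). Ppara, the fatty acid receptor, fell from 258 ± 38.1 to 130.3 ± 34.0 CPM (log2 fold change -0.99).

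The rows within 100 kb of a member numbered 19, of which 10 were tested, 3 were called higher and 2 lower (median log2 fold change 0.18), against 16.2% and 13.5% of all tested genes. Near Slc22a18, Cars, a cysteinyl-tRNA synthetase, rose from 29.1 to 84.2 CPM (log2 fold change 1.53) and the cell cycle inhibitor Cdkn1c from 1.17 to 2.68 CPM (log2 fold change 1.18). Near Slc22a7, Cul9, a cullin, was higher by 0.96 and Dnph1, a nucleotide hydrolase, lower by a log2 fold change of -1.08. The only row that was not a member within that distance on chromosome 19 was Slc22a19, with 0 counts in every liver.

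Within genotypes, pairs of members deviated both together and oppositely. Over the 8 livers, the correlation of log2 deviations from the genotype mean ran from -0.80 (Slc22a28 with Slc22a29) to 0.81 (Slc22a23 with Slc22a27). It was -0.38 for Slc22a26 with Slc22a27 and 0.55 for Slc22a28 with Slc22a30. The points share libraries and their scaling, and Slc22a28 and Slc22a29 rest on few counts, so these are descriptions with no test.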

How the data were processed

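Liver RNA of 4 FXRKO and 4 BCL6LKOFXRKO males was made into stranded mRNA libraries and read as 100 bp single ends. Per the methods and labels, the authors mapped the reads to mm10 (STAR 2.5.2), dropped those with more than 1 location or more than 4 mismatches, and counted the rest over exons with HOMER 4.10. The deposited counts are raw, 1 transcript stands for a gene, and no strand option is stated. The methods name DESeq2 for differential expression.

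The counts were tested in R 4.3.3 with edgeR 4.0.16 (filterByExpr, TMM, robust quasi-likelihood fit, Benjamini-Hochberg over the tested genes). Groups came from the sample titles and liver numbers from the library names in the labels, which give no batch. Where nothing says how the libraries relate to animals beyond their own numbers, p-values measure the spread between these samples. CPM used the TMM factors, and levels per kb used the transcript lengths in the table. The standard error was the absolute log2 fold change over the square root of F. Depth of 7586241 to 11839503 counts sets the precision, and a floor of 3 counts is 0.272 to 0.375 CPM. Transcripts from GENCODE vM21 and promoters from RefSeq were compared with Biopython 1.88, and 8 of 9 promoters matched by symbol.

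The members and lists were chosen with earlier results of these data known. The genes named were all 9 members, every other tested Slc22 gene, of each other list the 3 called genes of lowest adjusted p among those higher and among those lower, and Bcl6 and Nr1h4, except 1 gene that is left unreported. Some markers and genes without counts are named as well, to show what a sum rests on. Alternatives were DESeq2 1.42.0, limma 3.58.1 voom with quality weights, RLE factors, total counts alone, TMM without the 50 most counted genes, at least 10 counts in every liver, no filter, leaving out single livers, and a log2 fold change threshold of 0.5 for counts of genes. Summing the counts of Slc22a28 with Slc22a30 and of Slc22a27 with Slc22a29 was added after seeing the data. So were levels per kb of length that no other Slc22 gene shares over 100 bases. The fits were tested on simulated data with known changes.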

Additional observations from a re-analysis of the deposited data

Results flagged for a closer look

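In 3 of the 34 groups of 4 livers examined, 1 liver lay further from its nearest neighbour than the 95% critical value of Dixon's gap over range, where chance gives about 1.7. Slc22a7 in BCL6LKOFXRKO liver 6 was at 9.83 CPM, against 3.799 to 4.81 CPM in the other 3, a ratio of 0.832. Slc22a17 in BCL6LKOFXRKO liver 5 was at 2.01 CPM, against 3.52 to 3.72 CPM, a ratio of 0.881. The summed level of the 5 chromosome 19 members in BCL6LKOFXRKO liver 8 was 52.2 CPM per kb, against 89.2 to 96.0, a ratio of 0.845.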

How the results depend on the processing

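Of 131 values of the member log2 fold changes under the other settings, 124 kept their direction and their side of the threshold, 5 kept their direction but were no longer called (4 of Slc22a18 and 1 of Slc22a7) and 2 changed sign, both of members that were never called. These were Slc22a23 with total counts alone (-0.0188) and Slc22a29 without FXRKO liver 2, within a leave-one-out range of -0.0189 to 0.59. Slc22a26, Slc22a27, Slc22a28, Slc22a30 and Slc22a5 kept their calls at adjusted p under 0.05 in every fit that tested them. Their log2 fold changes were 6.18 to 6.59, 3.86 to 4.38, -6.14 to -5.46, -1.63 to -1.28 and -0.62 to -0.39. Requiring at least 10 counts in every liver left 1 member called higher, Slc22a18, because Slc22a26 to Slc22a29 were then not tested. With total counts alone, 2949 genes were called lower, against 1665, and 1404 higher, against 1994, so that 32.3% of called genes were higher, against 54.5%. Under that scaling 2 members were called higher and 4 lower. With an absolute log2 fold change above 0.5 required as well, 2 members were called higher and 3 lower, against 1739 and 1214 of all tested genes. Slc22a18 (0.44) and Slc22a5 (-0.46) fell short of that threshold. Summing Slc22a27 with Slc22a29 gave a called 3.14 in place of the uncalled Slc22a29 value, since Slc22a27 holds most of that sum in BCL6LKOFXRKO livers. The 18 levels per kb moved by less than 1 SD with total counts alone. The order of the 9 members by level changed without FXRKO liver 2, 3 or 4 and without BCL6LKOFXRKO liver 8, and with lengths that no other Slc22 gene shares. The library names in the labels number the livers 1 to 4 and 5 to 8, with no number shared between genotypes. The sample titles carry another number for each liver. Some of these are consecutive between an FXRKO and a BCL6LKOFXRKO liver, and that of BCL6LKOFXRKO liver 5 lies apart from the rest. The labels do not say what these title numbers mean, and no paired analysis was run. Counts of 4 to 31 per liver for Slc22a29 limit what could be seen at this depth.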
